A study of Saccharomyces cerevisiae with 5 samples.

Results

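The proteins of the large subunit of the cytosolic ribosome are encoded in budding yeast by genes named RPL, and by RPP genes for the proteins of the ribosomal stalk. Members were chosen by name alone, as features whose standard symbol is RPL with a number, or RPP with a digit, followed by an optional A or B. Of 82 annotated genes with such a symbol, 80 were among the 6567 features of the table. One of them, RPP1, encodes a protein subunit of the RNA-processing enzymes RNase P and RNase MRP and no ribosomal protein, so it is given apart. The 79 ribosomal genes formed 34 pairs of A and B paralogues, 68 genes in all, and 11 single-copy genes, and together they encode 45 proteins. RPL41A and RPL41B were not analysed here.

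The large subunit holds the peptidyl transferase centre, which joins amino acids, and the tunnel through which the new chain leaves the ribosome. Most of its proteins are encoded by paralogues that remained from an ancient duplication of the yeast genome, and many of these genes carry an intron, which is rare in this organism. In growing cells these genes are among the most strongly transcribed, under the control of Rap1, Fhl1, Ifh1, Sfp1 and TOR signalling, which couple ribosome synthesis to growth.

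RNA was measured in asynchronous mid-log cultures of 5 strains of Saccharomyces cerevisiae, kept in rich medium at 30 °C. The WT strain was BY4741, of mating type a with mutant his3, leu2, met15 and ura3, and each mutant was described as BY4741 with LEU2 in place of 1 gene of the INO80 chromatin remodelling complex. The deleted genes were INO80 in strain WYY0193 (ino80d), ARP8 in WYY0196 (arp8d), ARP5 in WYY0194 (arp5d) and IES6 in WYY0195 (ies6d). INO80 encodes the remodelling ATPase, ARP8 an actin-related protein of a DNA-binding module, and ARP5 and IES6 the partners of another module. The labels name 1 strain per genotype, the WT strain lacks a working LEU2, and each strain has 1 deposited value that stands for 2 biological replicates.

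The values are FPKM, fragments per kilobase of feature scaled to the number of mapped fragments. Wherever 4 values follow a WT value or stand for the mutants, their order is ino80d, arp8d, arp5d, ies6d. With 1 value per strain there is no replicate error, so no difference below was tested, and features were counted by the size of the difference alone. Each deleted gene was at most 0.235% of its WT level in its own mutant. The strains also differed outside the deleted genes. LEU2 was at 0.0619 FPKM in WT and between 81.3 and 125 in the mutants. MET17, the gene mutated in met15 strains, was at 807 FPKM in ino80d and 564 in arp8d but at most 0.571 in the other strains, and LYS2, of lysine synthesis, was at 0.0138 in ino80d and 0.039 in arp5d but at least 25.01 in the others. The part of these differences in the results was not tested. Ratios to WT are log2 ratios of FPKM + 1, taken over the 6192 features with a mean of at least 5 FPKM, and all 79 members passed that filter.

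The large subunit genes were lower in every mutant than in WT, most in ino80d and least in ies6d. The median log2 ratio to WT was -0.75 for ino80d, -0.55 for arp8d, -0.47 for arp5d and -0.29 for ies6d, or 1.68-fold, 1.47-fold, 1.39-fold and 1.22-fold lower. The median over all kept features lay between -0.02 and -0.01. The 4 comparisons share the same WT value, so an error in WT would move them all, and their likeness is no separate evidence.

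In ino80d, 57 of the 79 genes were at least 1.5-fold lower than in WT, against 13.2% of all kept features. In arp8d the count was 35, against 8.33%. In arp5d it was 26, against 10.9%. In ies6d it was 12, or 15.2% of the members, against 10.4%, so the count there stood only a little above the background and the lower level showed mainly in the median. No member was at least 1.5-fold higher in any mutant, against 15.1%, 11%, 13.3% and 14.4% of kept features in ino80d, arp8d, arp5d and ies6d. At least 2-fold lower were 10, 3, 4 and 3 genes, against 4.39%, 2.45%, 3.6% and 3.55% of kept features.

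The members lay close together. Their lower quartiles were -0.85, -0.67, -0.62 and -0.46, and their upper quartiles -0.56, -0.48, -0.34 and -0.15. All 79 ratios were below 0 in ino80d, in arp8d and in arp5d, and 72 were in ies6d. A few genes stood far below this band, and the longest tail belonged to RPL7B.

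**Figure D1:**
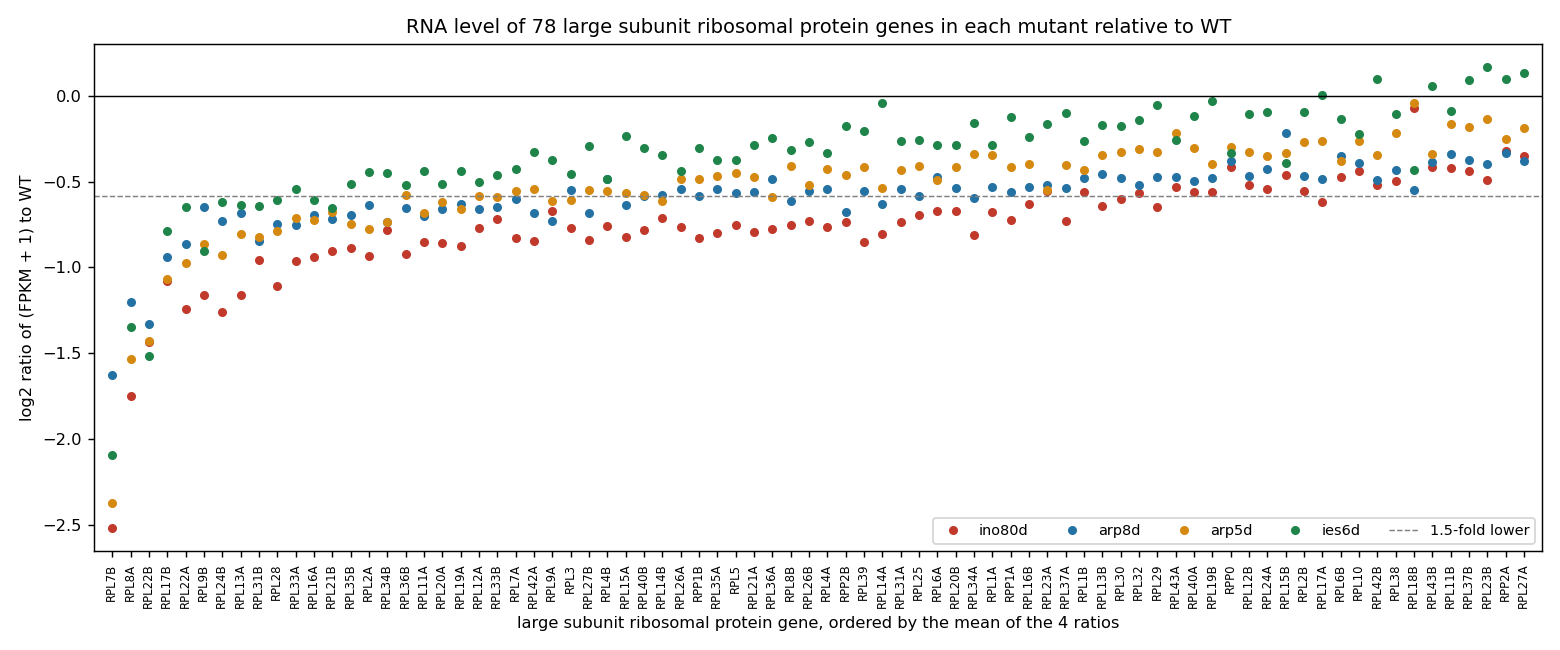
Log2 ratio of FPKM + 1 to WT (vertical axis) for 78 of the genes (horizontal axis, ordered by the mean of the 4 ratios), with 1 point per mutant and a dashed line at 1.5-fold lower. The points of ino80d mostly lie lowest and those of ies6d highest, RPL7B, RPL8A and RPL22B stand apart at the left, and no point lies 1.5-fold above WT.

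RPL7B and RPL8A were among the 3 lowest members in each mutant, and their paralogues RPL7A and RPL8B were not among the 5 lowest in any. The RPL7 and RPL8 proteins both join the subunit early in its assembly. The sequences before these 4 genes are shown because one copy of each pair lay far below the family and the other did not, and the choice was made after the values were seen. Each stretch is 240 bases long and begins 380 bases before the start codon, in the direction of the gene, read from the RefSeq R64 assembly (sacCer3). Capitals mark matches to ACCCNNACA, a core of the site bound by Rap1, and to GACGCNNA, a motif associated with Fhl1 and Ifh1, on either strand. The stretches are chrVII:366137-366376 on the minus strand for RPL7A, chrXVI:172772-173011 on the plus strand for RPL7B, chrVIII:36166-36405 on the minus strand for RPL8A and chrXII:48770-49009 on the minus strand for RPL8B.
RPL7A: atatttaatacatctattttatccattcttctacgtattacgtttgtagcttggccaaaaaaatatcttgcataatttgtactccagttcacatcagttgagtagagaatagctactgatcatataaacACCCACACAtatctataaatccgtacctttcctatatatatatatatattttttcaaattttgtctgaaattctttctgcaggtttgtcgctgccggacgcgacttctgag
RPL7B: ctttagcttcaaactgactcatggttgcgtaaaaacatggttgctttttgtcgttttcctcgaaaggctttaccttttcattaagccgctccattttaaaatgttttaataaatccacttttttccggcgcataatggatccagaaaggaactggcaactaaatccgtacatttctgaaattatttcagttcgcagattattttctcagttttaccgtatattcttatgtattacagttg
RPL8A: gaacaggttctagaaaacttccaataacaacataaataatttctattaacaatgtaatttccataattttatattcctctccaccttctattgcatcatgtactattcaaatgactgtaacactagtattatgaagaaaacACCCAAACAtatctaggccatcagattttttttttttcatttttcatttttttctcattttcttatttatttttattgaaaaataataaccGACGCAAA
RPL8B: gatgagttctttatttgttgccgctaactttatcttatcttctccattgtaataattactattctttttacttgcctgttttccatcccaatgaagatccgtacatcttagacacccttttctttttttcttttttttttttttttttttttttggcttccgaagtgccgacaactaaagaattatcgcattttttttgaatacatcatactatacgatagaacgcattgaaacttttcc
The Rap1 core lies 251 bases before the start codon of RPL7A and 239 bases before that of RPL8A, and RPL8A also holds the GACGCNNA motif. The stretches of RPL7B and RPL8B hold no match to either pattern. Other forms of these sites were not searched, so the lack of a match does not show that a site is absent. The matches to these patterns divide the 4 genes differently from the RNA, since RPL7B and RPL8A were the low copies. A match is a description of letters, not a shown binding site.

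RPL7B was at 465 FPKM in WT and at 80.3, 150, 89.0 and 108 in the mutants. All mutants lay far under WT, with log2 ratios of -2.52, -1.63, -2.37 and -2.09 in the same order. RPL7A, which encodes a protein 98.0% identical, was at 3938 FPKM in WT and at 2216, 2596, 2682 and 2924 in the mutants. Its log2 ratios of -0.83, -0.60, -0.55 and -0.43 lay between the median and the lower quartile of the family. The A share of the RPL7 sum was 89.4% in WT and 96.5%, 94.5%, 96.8% and 96.4% in the mutants. Because RPL7A dominates, the log2 ratio of the sum was -0.94, -0.68, -0.67 and -0.54. The coding sequences are 96.7% identical and RPL7B too stands beside a feature absent from the annotation, so the split of this pair is uncertain as well.

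RPL8A was at 2605 FPKM in WT and at 774, 1131, 899.9 and 1022 in the mutants, with log2 ratios of -1.75, -1.20, -1.53 and -1.35. RPL8B was at 3107, 1846, 2029, 2343 and 2491 FPKM, with log2 ratios of -0.75, -0.61, -0.41 and -0.32. The copies were nearly level in WT, where RPL8A made up 45.6% of the sum, and unequal in the mutants, where it made up 29.5%, 35.8%, 27.8% and 29.1%. This was the widest movement of a share among the 34 pairs. The coding sequences of RPL8A and RPL8B are 95.1% identical, and RPL8B stands beside YLL044W, a feature absent from the annotation at 9730 FPKM in WT, so the split of this pair is uncertain.

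Both genes for RPL22, a protein near the exit tunnel that cells can do without, were low. RPL22B was at 1181 FPKM in WT and at 435, 469, 438 and 411 in ino80d, arp8d, arp5d and ies6d, with log2 ratios of -1.44, -1.33, -1.43 and -1.52. RPL22A was at 669, 282, 368, 341 and 427 FPKM, with log2 ratios of -1.24, -0.86, -0.97 and -0.65. Their sum, 1850 FPKM in WT, had log2 ratios of -1.37, -1.14, -1.25 and -1.14, the lowest of the 45 proteins in each mutant. RPL22A stands beside YLR062C, a feature absent from the annotation at 8129 FPKM in WT. The level of RPL22A and the rank of the sum are thus uncertain. RPL22B alone moved little between mutants, so that the order seen in the family, ino80d lowest and ies6d highest, did not show in it.

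Other low members were single copies of pairs. RPL17B, for a protein of the exit tunnel, was at 4072 FPKM in WT and at 1929, 2125, 1938 and 2355 in the mutants, while RPL17A was at 6124, 3991, 4376, 5098 and 6145. RPL17A thus lay level with WT in ies6d, where RPL17B had a log2 ratio of -0.79. RPL24B, for a protein at the bridge to the small subunit, was at 5106, 2128, 3074, 2682 and 3328 FPKM, with a log2 ratio of -1.26 in ino80d against -0.55 for RPL24A. RPL9B, for a protein near the stalk base, was at 1787, 798, 1140, 983 and 952 FPKM, with a log2 ratio of -0.91 in ies6d against -0.37 for RPL9A.

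At the upper end, RPL18B was at 1342 FPKM in WT and at 1279, 917, 1306 and 993 in the mutants. It was near its WT level in ino80d and arp5d, with log2 ratios of -0.07 and -0.04, and lower in arp8d and ies6d, at -0.55 and -0.43.

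RPL23B, for a protein that contacts the small subunit, was at 6445 FPKM in WT and at 4581, 4900, 5865 and 7241 in the mutants, and its log2 ratio of 0.17 in ies6d was the highest of any member in any mutant. RPL27A stood at 7152, 5609, 5487, 6288 and 7853 FPKM, with 0.14 in ies6d. In ies6d the next highest were RPP2A and RPL42B, both at 0.10, and RPL37B, at 0.10. In arp8d the highest were RPL15B at -0.22, RPP2A at -0.34, RPL11B at -0.34, RPL6B at -0.35 and RPL37B at -0.37, so no member reached its WT level there. The highest in ino80d after RPL18B were RPP2A at -0.32, RPL27A at -0.35, RPL43B at -0.42 and RPP0 at -0.42. In arp5d they were RPL23B at -0.14, RPL11B at -0.16, RPL37B at -0.18 and RPL27A at -0.19.

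Set directly against each other, the mutants kept this order. The median log2 ratio of the 79 genes was -0.16 for ino80d against arp8d, -0.25 for ino80d against arp5d and -0.43 for ino80d against ies6d, and ino80d was the lower in 75, 79 and 77 genes. It was -0.08 for arp8d against arp5d, with arp8d the lower in 57 genes, -0.25 for arp8d against ies6d and -0.18 for arp5d against ies6d, with the first of each the lower in 73 genes. Few single genes passed 1.5-fold: 12 were lower in ino80d than in ies6d, against 3.67% of kept features. Lower in arp8d than in ies6d were 2, against 3.97%, and lower in ino80d than in arp8d was 1, against 3.7%. The count was 0 for ino80d against arp5d, for arp8d against arp5d and for arp5d against ies6d, where 1.97%, 2.84% and 2.08% of kept features passed. In the other direction, only RPL7B passed, higher in arp8d than in arp5d, where 2.76% of kept features did. No member was 1.5-fold higher in ino80d than in arp8d, arp5d or ies6d, against 3.84%, 1.87% and 2.65% of kept features. The same held for arp8d and arp5d against ies6d, with 2.79% and 1.57%. The medians between mutants were of like size in the small subunit genes, at -0.17, -0.25, -0.45, -0.10, -0.29 and -0.20 in the same order. Other abundant genes kept the order too. The 100 most abundant open reading frames of at least 300 bp that encode no cytosolic ribosomal protein had -0.12, -0.19, -0.33, -0.08, -0.20 and -0.13. Much of the order was thus not particular to ribosomal genes.

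The genes of the small ribosomal subunit had median log2 ratios to WT of -0.73, -0.57, -0.49 and -0.34 over 56 genes in ino80d, arp8d, arp5d and ies6d, close to those of the large subunit. Among the farthest from WT were RPS9A, with log2 ratios of -2.02, -1.39, -1.70 and -1.39, and RPS28B, with -0.95, -1.62, -1.36 and -1.14. The ratio of summed FPKM, large to small subunit, was 0.93 in WT and between 0.93 and 0.95 in the mutants. Genes for large subunit proteins of the mitochondrial ribosome, a separate machine inside mitochondria, stayed near 0, at -0.01, 0.01, 0.04 and 0.11 over 34 genes, with 1 gene at least 1.5-fold lower in each mutant and 1 higher in ies6d. The lower gene was MRPL8, at 175 FPKM in WT and 78.0, 84.8, 80.3 and 101 in the mutants. MRPL24 had log2 ratios of 0.48, 0.32, 0.32 and 0.52, and MRPL31 had -0.58, -0.44, -0.45 and -0.16.

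Other abundant genes moved with the result in part. The 100 most abundant other open reading frames of at least 300 bp had medians of -0.36, -0.25, -0.13 and -0.04, lower than all kept features in the first 3 mutants. Their levels did not match those of the members, with a median of 2122 FPKM in WT against 6011. Within the family the higher-level members lay less low, as given further on. When each strain was centred on those genes, a choice made after the data were seen, the large subunit medians were -0.39, -0.31, -0.34 and -0.26, and 12, 6, 16 and 9 members were at least 1.5-fold lower. That is 15.2%, 7.59%, 20.3% and 11.4% of the members, against 4.99%, 3.57%, 7.66% and 9.42% of all kept features on the same scale, so the count in ies6d was near the background. The centring moved the median of all kept features to 0.35, 0.23, 0.11 and 0.01. The medians of the mutants were closer together on that scale, with arp5d below arp8d, and the members still lay below the other abundant genes. The part of scaling in the result was not tested.

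**Figure D2:**
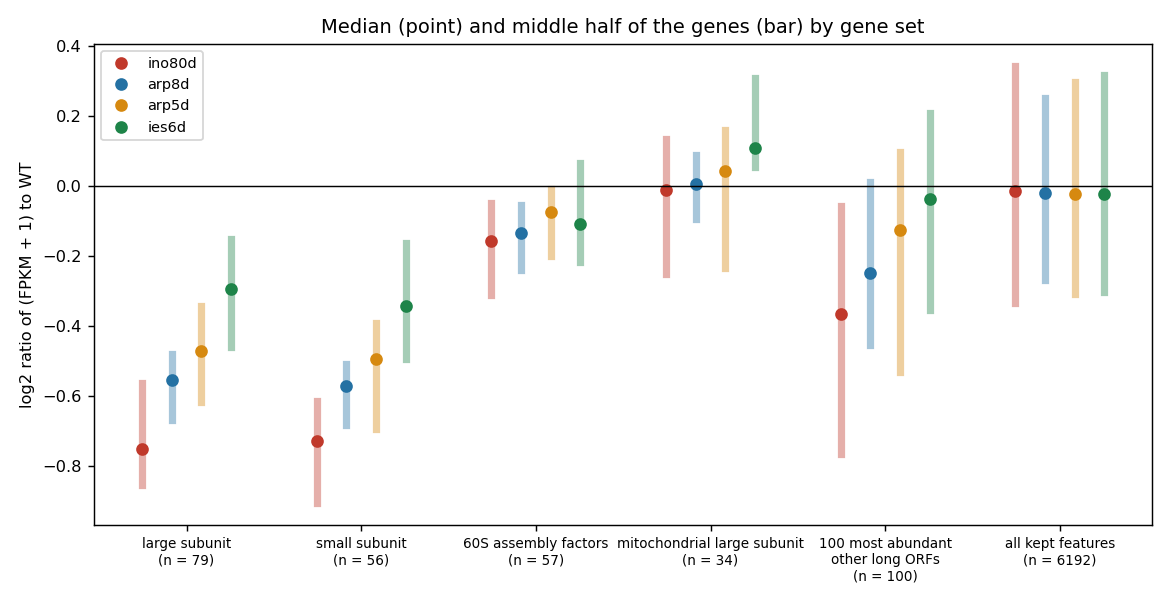
Log2 ratio of FPKM + 1 to WT (vertical axis) by gene set (horizontal axis), with the median as a point, the range from lower to upper quartile as a bar, and 1 colour per mutant. Large and small subunit genes lie at like medians, from about -0.75 to -0.29 in the large subunit, whereas mitochondrial large subunit genes and all kept features lie near 0.

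As a share of summed values, the family was lower in every mutant. The 79 genes together held 14.9% of the sum of FPKM times coding length in WT, against 11.3%, 12.1%, 12.4% and 13.2% in the mutants. That sum covers only kept features with an annotated coding sequence. Of the FPKM sum over all features they held 16.9% in WT, against 11.6%, 14.1%, 13.0% and 13.2%. By that second share arp8d, not ies6d, was the mutant nearest WT. The median member was at 6011 FPKM in WT and at 3727, 4040, 4264 and 4977 in the mutants. Fewer ribosomal transcripts and more RNA of other genes cannot be told apart in such shares.

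The 11 single-copy genes had median log2 ratios of -0.65, -0.52, -0.33 and -0.22 in ino80d, arp8d, arp5d and ies6d, against -0.76, -0.57, -0.51 and -0.30 for the 68 paired genes. At least 1.5-fold lower were 7, 2, 2 and 1 of the single-copy genes and 50, 33, 24 and 11 of the paired genes. These are 63.6%, 18.2%, 18.2% and 9.09% of the first and 73.5%, 48.5%, 35.3% and 16.2% of the second. The share of all kept features was 13.2%, 8.33%, 10.9% and 10.4%. In the single-copy class 1 gene is 9.09%, so its counts outside ino80d say little. The median of the paired genes was the lower in each mutant, and the quartiles of the classes overlapped in each.

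The level per gene of the single-copy genes ran from RPL29, at 53987 FPKM in WT, to RPL28, at 1516. RPL29 was at 34387, 38849, 43038 and 51976 FPKM in ino80d, arp8d, arp5d and ies6d. RPL39, for a very small protein that lines the exit tunnel, was at 28019 FPKM in WT and at 15504, 19101, 20986 and 24302 in the mutants. RPL38 was at 24362, 17243, 18087, 20993 and 22664 FPKM. These 3 genes have coding sequences under 300 bp, for which FPKM depends strongly on how the length was corrected, so their rank is uncertain. RPL39 also stands beside a feature absent from the annotation, given further on. In each of the 3 the mutants kept one order, ino80d lowest, then arp8d, arp5d and ies6d, and all lay under WT.

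RPL30, whose protein represses the splicing of its own transcript, was at 22251 FPKM in WT and at 14674, 15991, 17742 and 19712 in the mutants. RPL32 was at 16562, 11174, 11570, 13367 and 15035 FPKM. RPL25, for the protein at the tunnel exit where the signal recognition particle docks, was at 15114, 9354, 10073, 11376 and 12648 FPKM. These too followed the order of the family.

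RPL3, for a protein that reaches to the peptidyl transferase centre, was at 7657 FPKM in WT and at 4480, 5223, 5032 and 5576 in the mutants. RPL5, which carries the small ribosomal RNA of the central protuberance, was at 6765, 4020, 4576, 4950 and 5211 FPKM. RPL10, which is added last during assembly, was at 6476, 4776, 4937, 5404 and 5548 FPKM. These 3 genes lay near one another in WT and in each mutant. RPL10 stands beside a feature absent from the annotation, given further on, so its level is uncertain.

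RPP0, the base of the stalk, was at 3428 FPKM in WT and at 2566, 2637, 2791 and 2722 in the mutants, so the mutants lay close together and under WT. RPL28, where mutations give resistance to cycloheximide, was at 1516, 702, 902, 878 and 994 FPKM. Its log2 ratios of -1.11, -0.75, -0.79 and -0.61 were the lowest of the single-copy genes. RPL28 and RPP0 are also each beside a feature without an entry in the annotation, described further on.

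**Figure D3:**
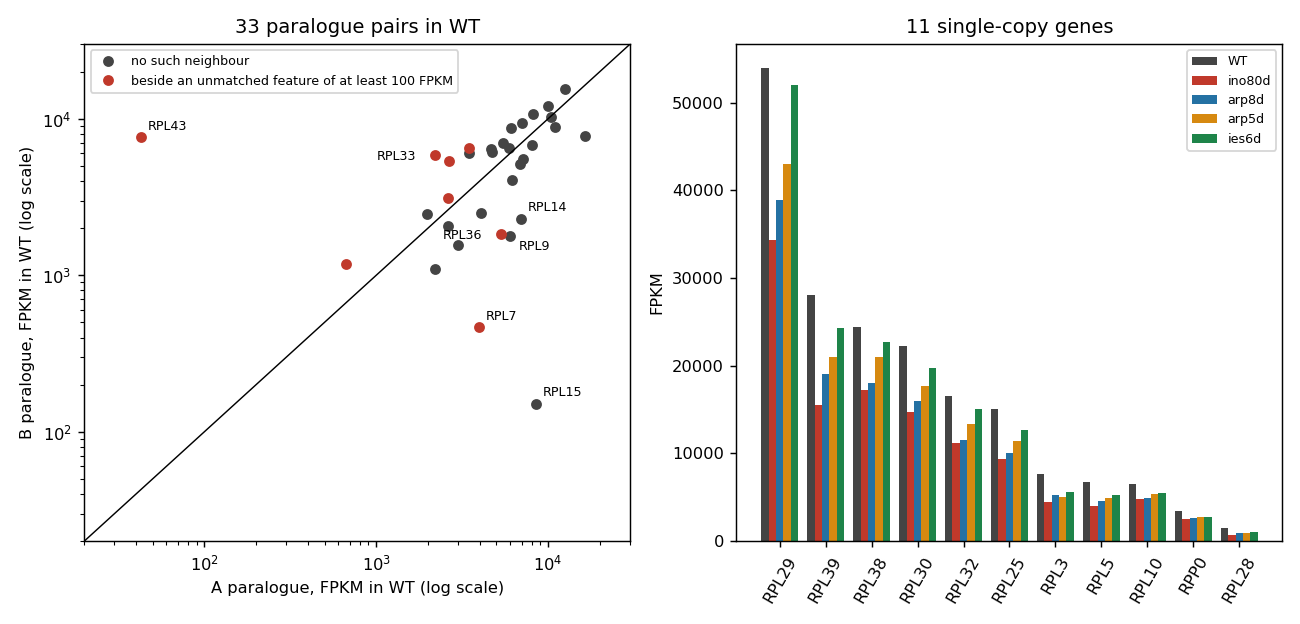
Left, FPKM in WT of the B paralogue (vertical axis, log scale) against the A paralogue (horizontal axis, log scale) for 33 of the pairs, with the line of equal levels and with pairs beside a feature absent from the annotation in red. Right, FPKM (vertical axis) of the 11 single-copy genes in each strain. RPL43, RPL15 and RPL7 lie far from the line, and the single-copy bars run from 53987 to 1516 FPKM in WT.

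By role in the subunit, the groups lay near one another. The 7 genes of the stalk, which recruits the translation factors, had medians of -0.73, -0.56, -0.41 and -0.18 in ino80d, arp8d, arp5d and ies6d, with 4, 3, 1 and 0 genes at least 1.5-fold lower. The 3 genes of the RPL5 and RPL11 complex with the small ribosomal RNA had -0.75, -0.56, -0.45 and -0.38, with 2, 1, 1 and 0 such genes. The 19 genes around the exit tunnel had -0.76, -0.55, -0.47 and -0.33, with 16, 7, 6 and 4 such genes. The 12 genes around the peptidyl transferase centre and the tRNA sites had -0.71, -0.54, -0.47 and -0.27, with 8, 5, 4 and 2 such genes. The 5 genes of the bridges to the small subunit had -0.55, -0.47, -0.34 and -0.17, with 2, 1, 1 and 1 such genes. The share of all kept features was 13.2%, 8.33%, 10.9% and 10.4%. The counts are 84.2%, 36.8%, 31.6% and 21.1% of the exit tunnel group. They are 66.7%, 41.7%, 33.3% and 16.7% of the peptidyl transferase group. In the stalk group 1 gene is 14.3%, so the counts of the stalk, RPL5 and bridge groups say little. The same holds for the small counts in ies6d.

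The acidic stalk proteins P1 and P2 come in paralogues that differ more than any other pair. RPP1A and RPP1B encode proteins 59.6% identical, and RPP2A and RPP2B proteins 61.8% identical. RPP1A was at 10033 FPKM in WT and at 6069, 6793, 7526 and 9214 in the mutants, and RPP1B was at 12126, 6816, 8073, 8657 and 9810. RPP2A was at 8183, 6558, 6487, 6871 and 8775 FPKM, and RPP2B was at 10665, 6412, 6680, 7730 and 9444. RPP2A was above WT in ies6d and kept the highest fraction of its WT level of the 4 in each mutant. The A share of the P2 sum was 43.4% in WT and 50.6%, 49.3%, 47.1% and 48.2% in the mutants.

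RPL40A and RPL40B encode the ribosomal protein as a fusion to ubiquitin, and the products are identical. RPL40A was at 10914 FPKM in WT and at 7399, 7739, 8844 and 10070 in the mutants, and RPL40B was at 8895, 5166, 5925, 5957 and 7209. Both lay under WT in each mutant, with RPL40B the lower by log2 ratio in all 4.

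Among the 34 pairs in WT, the A copy was the higher in 17 and the B copy in 17. The median responses of A and B copies were close. The A copies had median log2 ratios of -0.78, -0.58, -0.54 and -0.31 in ino80d, arp8d, arp5d and ies6d, and the B copies -0.72, -0.57, -0.48 and -0.30. At least 1.5-fold lower were 28, 17, 13 and 4 A copies and 22, 16, 11 and 7 B copies.

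The copies of a pair were on the whole less equal in the mutants than in WT. The median distance between them, the absolute log2 ratio of A to B, was 0.55 in WT, or 1.46-fold, and 0.81, 0.78, 0.92 and 0.81 in ino80d, arp8d, arp5d and ies6d. Pairs at least 2-fold apart numbered 11 in WT and 15, 12, 16 and 15 in the mutants. The ratio of A to B differed from that in WT by at least 1.5-fold in 4, 2, 4 and 4 pairs. Of the 26 pairs without a neighbouring feature absent from the annotation, described further on, it did so in 2, 0, 2 and 1, so a large part of the count came from pairs such as RPL7 and RPL8 that have one. The higher copy became the lower one in 3, 2, 2 and 3 pairs. RPL11 and RPL42 were among them in each mutant, joined by RPP2A and RPP2B in ino80d and by RPL22 in ies6d. Some of these switches were near-ties. RPL42A held 50.4% of its sum in WT, and RPL11A held 49.9% in arp8d and 49.99% in ies6d. The coding sequences of the copies are 97.0% identical in RPL11 and 98.1% in RPL42, so these splits are uncertain.

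How reads shared by near-identical copies were assigned is not given in the sources used here. Coding sequences of the copies were between 69.2% and 99.4% identical, with a median of 93.2%, and 10 pairs were at least 95% identical, so their split is uncertain. In 11 pairs the proteins are identical. Without the pairs at or above that identity the median distance was 0.49 in WT and 0.72, 0.63, 0.78 and 0.79 in the mutants.

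The most unequal pair in WT was RPL43, with 42.6 FPKM for RPL43A and 7642 for RPL43B, although the proteins are identical. RPL43A was at 29.2, 30.5, 36.5 and 35.5 FPKM in the mutants and RPL43B at 5723, 5857, 6045 and 7938. RPL43A stands beside a feature with a high value, given further on, and its level is doubtful. RPL15 was at 8445 FPKM for the A copy and 151 for the B copy in WT. RPL15A was at 4774, 5426, 5705 and 7174 FPKM in the mutants and RPL15B at 110, 130, 120 and 115, so the A copy held between 97.7% and 98.4% in every strain.

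Other unequal pairs in WT were RPL7, already given, RPL9 and RPL14. RPL9A held 77.0% of its sum in WT and between 76.0% and 82.9% in the mutants. RPL14A held 75.1% in WT and between 73.8% and 78.8% in the mutants.

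The most equal pairs in WT were RPL42, RPL20, RPL21 and RPL8. RPL42A and RPL42B, for a protein at the exit site for tRNA, were at 10399 and 10246 FPKM in WT, and the A share went from 50.4% to 44.7%, 47.0%, 46.9% and 43.0% in the mutants. RPL20A held 47.6% in WT and between 43.7% and 45.6% in the mutants. RPL21A held 54.2% in WT and between 56.2% and 60.5% in the mutants. Of these 4 pairs RPL8 alone became more than 1.5-fold apart in all mutants.

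After RPL8, wide shifts of share were seen in RPL22, RPL17, RPL24 and RPL11. The A share of RPL22 was 36.2% in WT and 39.3%, 44.0%, 43.7% and 50.9% in ino80d, arp8d, arp5d and ies6d. That of RPL17 was 60.1% in WT and 67.4%, 67.3%, 72.5% and 72.3%, and that of RPL24 was 57.3% in WT and 68.8%, 62.4%, 66.7% and 65.8%. In these 3 pairs the A copy gained share in each mutant. That of RPL11 was 56.1% in WT and 48.7%, 49.9%, 47.0% and 49.99%. In the last pair, which binds the small ribosomal RNA with RPL5, the copies were level in the mutants. The coding sequences of RPL11A and RPL11B are 97.0% identical, so their split is uncertain. The split of RPL22 is uncertain too, since RPL22A stands beside a feature absent from the annotation.

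**Figure D4:**
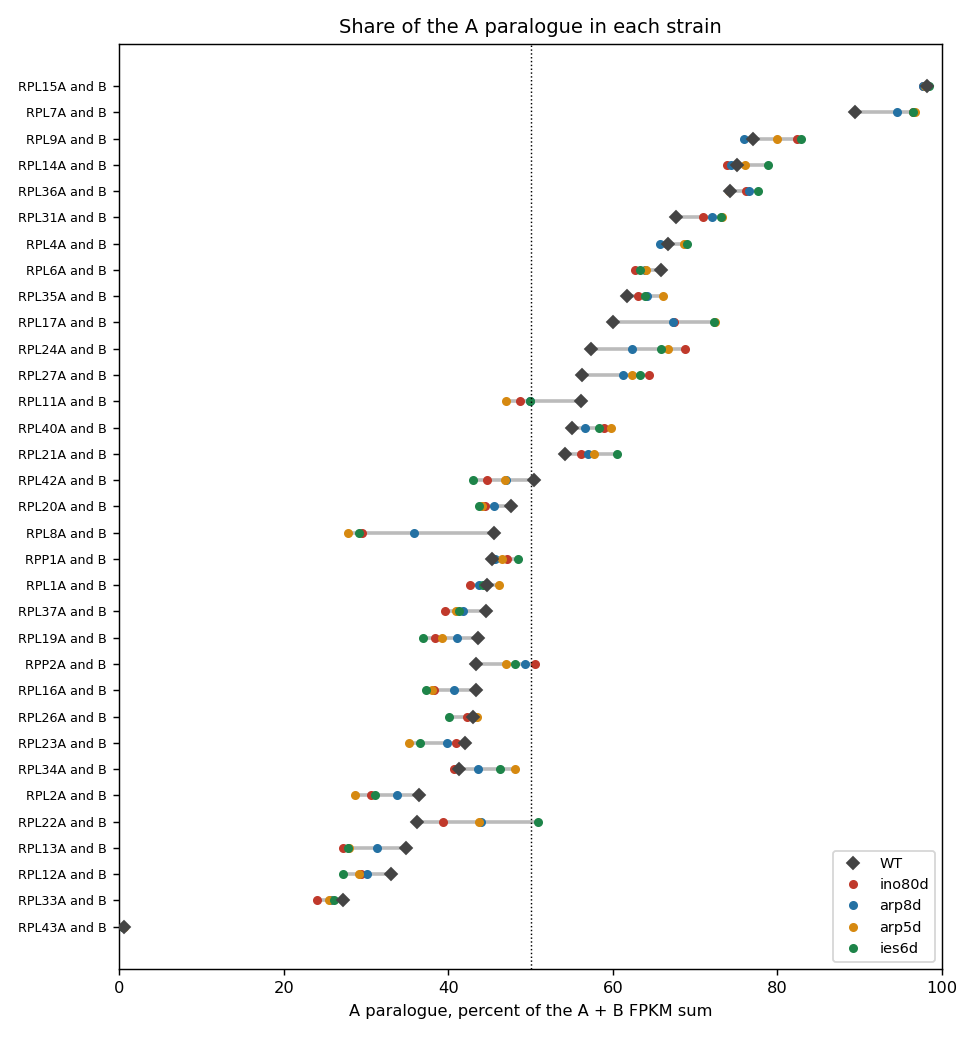
Share of the A paralogue in the A + B sum of FPKM, in percent (horizontal axis), for 33 of the pairs (vertical axis) in WT (diamond) and the 4 mutants (points), with a dotted line at equal levels. RPL8 shows the longest bar, from 45.6% in WT to 27.8% in arp5d, and RPL15 and RPL43 stay at the ends of the scale in every strain.

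The lower copy of a pair tended to have the more negative ratio. With the lower copy chosen by its level in WT, it had the more negative log2 ratio in 24, 21, 21 and 26 of the 34 pairs. Its medians were -0.83, -0.64, -0.58 and -0.44, against -0.72, -0.54, -0.45 and -0.26 for the higher copy. Choosing the lower copy by its mean level in the other 3 mutants gave 26, 23, 23 and 28 pairs. Either choice uses values that enter or resemble the ratio and can tilt the count, so these are descriptions. Without pairs beside a feature absent from the annotation, the counts by WT level were 17, 14, 16 and 19 of 26.

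Summed over both copies, the proteins varied less than the genes. The SD of the log2 ratio over the 45 proteins was 0.18, 0.13, 0.18 and 0.21 in ino80d, arp8d, arp5d and ies6d, against 0.33, 0.21, 0.33 and 0.35 over the 79 genes. A sum follows its larger copy, and the outlying gene RPL7B is a small part of its own. RPL22 stood apart from the rest, with the uncertainty given above for RPL22A. The sum of RPL8 was at -1.12, -0.85, -0.82 and -0.70, near RPL28 at -1.11, -0.75, -0.79 and -0.61.

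Genes with an intron lay somewhat lower than those without in ino80d, arp8d and arp5d. Of the 79 genes 53 have an intron in the annotation, against 271 of 6008 nuclear open reading frames, and RPL7A and RPL7B each have 2. Genes with an intron had medians of -0.78, -0.58, -0.52 and -0.29 in ino80d, arp8d, arp5d and ies6d, and the 26 without had -0.70, -0.54, -0.42 and -0.30. At least 1.5-fold lower were 41, 26, 19 and 9 of the first and 16, 9, 7 and 3 of the second, or 77.4%, 49.1%, 35.8% and 16.98% against 61.5%, 34.6%, 26.9% and 11.5%. The share of all kept features was 13.2%, 8.33%, 10.9% and 10.4%, so genes without an intron were near the background in ies6d. The consensus donor GTATGT began 44 of the 55 introns, and 52 held the branch point motif TACTAAC.

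Length and level were also set beside the ratios. The 31 genes of up to 400 bp had medians of -0.73, -0.55, -0.46 and -0.26, and the 48 longer genes -0.75, -0.56, -0.51 and -0.33. Other open reading frames of 300 to 400 bp had medians above 0, at 0.15, 0.08, 0.14 and 0.23. The short members thus lay on the opposite side of WT, but the sets differ in length and level. The members reach down to 156 bp, and their median in WT was 8895 FPKM against 103 for the other short genes. The 52 genes of at least 4000 FPKM in WT had -0.73, -0.55, -0.44 and -0.24, and the 27 others -0.77, -0.61, -0.58 and -0.44. The lower-level members thus lay lower, mainly in ies6d.

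The members lie on 14 chromosomes, and in 4 pairs both copies are on the same one. RPL14A, RPL17A and RPL40B are on chromosome XI, where other open reading frames had a median of 0.11 in ies6d. The 3 genes had a median of -0.04 in ies6d, above the family's -0.29. Whether the chromosome has a part in this was not tested.

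In 500 bases before the start codon, 35 of the 79 genes held the Rap1 core ACCCNNACA on either strand, or 44.3%, against 5.46% of 6006 windows of all genes. Genes with and without it had like medians, -0.76, -0.59, -0.52 and -0.29 with it and -0.74, -0.55, -0.44 and -0.32 without. Other forms of the Rap1 site were not searched, so a gene without the core is not shown to lack a site. GACGCNNA was in 17 windows, or 21.5%, against 11.3%. Genes with it had medians of -0.82, -0.64, -0.58 and -0.38, lower than the -0.73, -0.54, -0.47 and -0.29 of genes without it. AAAANTTTT, associated with Sfp1, was in 12, or 15.2%, against 11.9%. The motif of Abf1 was in 12, or 15.2%, against 22.7%, and TTAGGG, of Tbf1, in 4, or 5.06%, against 12.5%. The 4 genes with TTAGGG had medians of -0.81, -0.71, -0.63 and -0.37, against -0.73, -0.55, -0.46 and -0.29 without it. For the motifs of Sfp1 and Abf1 the medians with and without lay on different sides in different mutants. Matches to different motifs may overlap, and no difference between such groups was tested.

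Beside 14 members stood features of at least 100 FPKM that have no entry in the annotation, identified by their systematic names as neighbours. Their positions are not given, and the libraries did not record the strand, so whether they overlap the members was not tested. The largest contrast was at RPL43A, with YPR044C at 8716 FPKM in WT against 42.6 for RPL43A. YPL250W-A beside RPL36B was at 20631 against 1839, and YGL102C beside RPL28 at 12849 against 1516. YLR062C beside RPL22A was at 8129 against 669. YLR076C beside RPL10 was at 12228 against 6476, and YJL188C beside RPL39 at 12631 against 28019. YLR339C beside RPP0 was at 553 against 3428. YPL197C beside RPL7B was at 544 FPKM in WT and at 99.9, 200.2, 122 and 135 in the mutants, values that run beside those of RPL7B. The 65 members without such a neighbour had medians of -0.73, -0.55, -0.47 and -0.29, close to those of the whole family.

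Genes that regulate or assist the family had medians closer to WT. Of 16 regulators, 1, 2, 4 and 3 were at least 1.5-fold lower in ino80d, arp8d, arp5d and ies6d, against 13.2%, 8.33%, 10.9% and 10.4% of all kept features, and 0 were higher, with medians of -0.08, -0.13, -0.16 and -0.18. These are 6.25%, 12.5%, 25% and 18.8% of the list, and 1 gene is 6.25% of it, so counts this small say little. HMO1, for a high mobility group protein found at ribosomal genes, was at 548 FPKM in WT and at 298, 321, 300.4 and 320.2 in the mutants. RAP1 was at 68.7, 45.8, 48.1, 43.5 and 42.5 FPKM, and SFP1, for a zinc finger activator, was at 41.5, 28.8, 33.1, 26.4 and 27.0. These 3 were lower in each mutant, as was ABF1, with log2 ratios of -0.53, -0.63, -0.64 and -0.44. FHL1, at 24.9, 26.5, 24.2, 22.6 and 23.3 FPKM, was slightly lower in arp8d, arp5d and ies6d but not in ino80d. IFH1, at 30.7, 42.1, 33.8, 30.9 and 29.2, was lower only in ies6d.

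Of 18 chaperones and modifying enzymes of large subunit proteins, 4, 1, 3 and 2 were at least 1.5-fold lower and 0 higher, with medians of -0.33, -0.20, -0.13 and -0.18. The lower genes are 22.2%, 5.56%, 16.7% and 11.1% of that list, near the same background in arp8d and ies6d. EGD1 and EGD2, for the nascent chain associated complex at the tunnel exit, were at 3029 and 4099 FPKM in WT and at 1373 and 1733 in ino80d. Their log2 ratios were -1.14, -0.55, -0.77 and -0.54 for EGD1 and -1.24, -0.50, -0.72 and -0.61 for EGD2. RKM3, for a methyltransferase of RPL42, was at 48.4 FPKM in WT and at 21.5, 21.4, 17.4 and 17.2 in the mutants. Of 57 assembly and export factors of the subunit, 2, 1, 1 and 1 were at least 1.5-fold lower and 1, 1, 1 and 0 higher, with medians of -0.16, -0.13, -0.08 and -0.11, and the lower share of at most 3.51% was under the background in each mutant. REA1, for a very large ATPase that removes assembly factors, was the higher one, with log2 ratios of 0.67, 0.65, 0.70 and 0.42, and JJJ1, for a cofactor of late assembly, was at -0.59, -0.30, -0.63 and -0.60. RIX1, a partner of REA1, was at -0.61, -0.27, -0.43 and -0.49.

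RPP1, which shares only its name with the stalk genes, was at 138 FPKM in WT and at 88.1, 109, 89.4 and 89.6 in ino80d, arp8d, arp5d and ies6d. Its log2 ratios were -0.64, -0.34, -0.62 and -0.62.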

How the data were processed

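Poly(A) RNA of 5 strains was sequenced with the TruSeq RNA v2 protocol on an Illumina HiSeq instrument, per the labels' protocols. The authors deposited 1 FPKM value per feature and strain, which per the labels stands for 2 biological replicates. Per the submitters' processing notes, TopHat2 and Cuffdiff were used with build sacCer3. Versions, annotation and the handling of reads that match several places are not given in the sources used here. Fragment counts and depth are unknown, so no interval or detection limit was computed.

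Symbols, positions, introns and sequences came from the RefSeq R64 annotation, whose locus tags matched 5888 of 6567 feature IDs, and 679 did not match. Log2 ratios of FPKM + 1 were taken without rescaling over features with a mean of at least 5 FPKM, in Python 3.11.15 with numpy 2.4.6 and pandas 2.3.3. Paralogues were aligned with Biopython 1.88. No test was possible. Sets were described by medians and by counts past 1.5-fold, or 2-fold between paralogues. The steps were tested on simulated data.

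Genes named in the text were all single-copy, stalk and ubiquitin fusion genes, the 5 lowest and 5 highest members per mutant, the 6 most unequal and 4 most equal pairs in WT, the 6 pairs with the widest range of shares, 3 genes of each other list and 5 regulators. A large subunit gene with the shares of its pair, and a small subunit gene, meet this rule and are not reported here. The members and lists were chosen with earlier results of these data known.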

Additional observations from a re-analysis of the deposited data

How the results depend on the processing

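Of 288 alternative values for 26 results under 16 settings, 252 stayed near the value reported. The other 36 moved, by at least 0.1 in a median or 1.5-fold in a count. None reversed, but a change of sign was looked for only in the 4 median log2 ratios to WT. Some values could not move. Counts of members at least 1.5-fold higher were 0 in every setting. No member's coding sequence overlapped another listed feature, so leaving out overlapping members changed nothing. Pseudocounts of 0.1 and 5 FPKM and a filter at 20 FPKM moved none of them. That filter could not, since the lowest value of any member in any strain was 29.2 FPKM. The pseudocounts are small beside most members, so these settings say little about robustness. Centring on the 100 most abundant other genes, added after seeing the data, gave medians of -0.39, -0.31 and -0.34 and counts at least 1.5-fold lower of 12, 6 and 16 in ino80d, arp8d and arp5d. Calling a gene lower when its WT value was at least 25% above the mutant's gave 78, 65 and 36 members in arp8d, arp5d and ies6d, against 20.8%, 24.0% and 23.7% of all kept features, and a 2-fold threshold gave 10, 3, 4 and 3 in the 4 mutants in the usual order. Pairs 1.5-fold apart numbered 17 in WT, 23 in ino80d, 20 in arp8d and 23 in ies6d, and pairs 3-fold apart numbered 6 in WT and 7, 6, 6 and 7 in the mutants. Without paralogues at least 95% identical, 7 pairs in WT, 10 in arp5d and 9 in ies6d were 2-fold apart, and the median distance was 0.63 in arp8d and 0.78 in arp5d. Without members beside a feature absent from the annotation, added after seeing the data, the pairs numbered 6 in WT and 8, 6, 9 and 8 in the mutants, and the median distance was 0.42 in WT, 0.69 in ino80d, 0.57 in arp8d and 0.72 in arp5d. Except for changed thresholds, fewer pairs or another centring, no cause was tested.

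No paired analysis was possible because each strain has 1 value that joins its replicates, and for the same reason no replicate was left out. The unknown depth, the missing replicates and the unknown assignment of reads shared by copies limit all values.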

Other observations

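The median distance between copies over 24 small subunit pairs was 0.65 in WT and 0.92, 0.88, 1.04 and 1.03 in the mutants, so the copies were less equal there too, as in the large subunit.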
